A study of Homo sapiens with 18 samples.

Results

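Epithelial to mesenchymal transition is the programme by which cells loosen their junctions, change their filaments and gain motility. It is run by zinc finger factors of the ZEB and SNAIL families and by the basic helix-loop-helix factor TWIST1, which bind E-box motifs and repress junction genes such as CDH1. In tumours of neural crest or mesenchymal origin, which hardly make epithelial junctions to begin with, the same factors are expressed as part of the mesenchymal state of the cells. The genes described here are 4 such factors (ZEB1, ZEB2, SNAI2 and TWIST1) and 5 markers of mesenchymal or progenitor cells (VIM, CD44, TGFBI, S100A4 and NES), 9 genes in all. They were taken from a list, and every probe set that the platform annotation assigns to one of them alone was followed, which gave 18 of the 22283 probe sets on the array. Of these, 9 probe sets of 8 genes were bright enough to be tested, among 13705 probe sets of 9162 genes, and NES was not.

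The values come from SK-N-MC, an established human tumour cell line that GEO's labels call neuroepithelioma and the study calls neuroblastoma. Cells were grown with rotenone, an inhibitor of complex I of the respiratory chain that also destabilizes microtubules, at 5 nM or 50 nM, or with ethanol vehicle, in medium without pyruvate. Harvest after 1 or 4 weeks gave 6 groups with 3 arrays each, here called 1w0, 1w5 and 1w50 nM for the first time point and 4w0, 4w5 and 4w50 nM for the second, and each array holds the pooled cells of 5 dishes from 1 of 3 experiments. All groups are the same line, and no single-cell clone or marker sort is described. A probe set's signal is a model-based expression index (MBEI) on a linear scale, and it compares arrays but not different genes. A gene is said to rise or fall where limma gave an adjusted p below 0.05 over all 13705 probe sets, and a log2 fold change of 1 is a 2-fold difference.

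Several libraries bear on what follows. Replicate 3 of 1w0 nM stood apart from its group, whose arrays correlated at 0.908 to 0.980, against 0.965 to 0.992 within the other groups. It was not the only 1w0 nM array in question. Estimated array weights, which let noisier arrays count less, were lowest for replicate 1 of 1w0 nM (0.0088), with 0.14 for replicate 3. That estimation stopped short of its tolerance, so these weights and their order are uncertain. The supplementary gene list of the study gives group means that match the 1w5 nM and 1w50 nM arrays better when replicate 2 of 1w5 nM and replicate 3 of 1w50 nM change places. Exchanged against as labelled, 72 against 7 listed probe sets fell within 1% in 1w5 nM and 99 against 4 in 1w50 nM. As labelled, 400 did in 4w5 nM and 542 in 4w50 nM. The 1263 entries compared with each group are the lists of all dose groups together. Each group's own list is only a part of them, so these counts are not to be read as shares of 1263. Both arrays are used as labelled but are in doubt. The 18 hybridization control probe sets averaged between 8.69 and 9.10 on the log2 scale on the 6 arrays of 4w5 nM and 4w50 nM and between 9.69 and 10.12 on the other 12, a ratio of 0.496, and the part of this in the 4-week results was not tested. Of 14 listed neuroblastoma markers 8 passed the filter, PHOX2A, HAND2, TH, DDC and STMN2 were below 50 on all arrays, and the list's summed signal was 1009 to 1563. The 8 tested genes of a list related to tumours carrying the EWS-FLI1 fusion summed to 19217 to 20548 in 4w5 nM and 11956 to 15246 in 4w50 nM, against 18950 to 18975 in 4w0 nM. Their sum was 17948 to 18295 in 1w5 nM and 16601 to 18195 in 1w50 nM, against 10780 to 18682 in 1w0 nM. The sum takes no account of the direction in which the fusion moves a gene. Of these genes CD99, CCK, CAV1 and PRKCB were lower with 50 nM at 4 weeks, CAV1 by -1.46 and CCK by -0.91 on the log2 scale. At 4 weeks IGFBP3 was higher with 50 nM (1.17) and NPY1R with 5 nM (0.66). The 6 tested neuron markers summed to 1589 to 3337 in 4w5 nM and 1590 to 1853 in 4w50 nM, against 2990 to 3412 in 4w0 nM. The part of these shifts in the 4-week values of the genes below was not tested.

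The mesenchymal genes differed in direction. After 4 weeks of rotenone ZEB1 and ZEB2 were higher at both doses, while TGFBI was lower at both, SNAI2 and TWIST1 were lower at 50 nM, and VIM and S100A4 were lower at 5 nM. At 4 weeks 2 genes rose and 3 fell with 5 nM, among 8 tested, where 18.5% of all tested genes rose and 14.1% fell (32.6% called). With 50 nM, 2 rose and 3 fell, where 23.3% of all tested genes rose and 17.6% fell (40.9% called). At 1 week SNAI2, TGFBI and S100A4 rose with both doses and ZEB1 fell with 50 nM. That is 3 of 8 higher and 0 lower with 5 nM, where 4.89% of tested genes rose and 1.59% fell (6.48% called), and 3 higher and 1 lower with 50 nM, where 8.97% rose and 11.4% fell (20.4% called). These 1-week calls were not made by a limma fit on the 6 compared arrays alone, which called 0 of 8 at either dose, with 5 and 4 at an unadjusted p below 0.05. With both arrays in doubt left out, the S100A4 call with 5 nM and the ZEB1 fall with 50 nM were also lost. The median log2 fold change of the 8 genes was 0.76 and 0.68 with 5 nM and 50 nM at 1 week and -0.37 and -0.36 at 4 weeks, against 0.07, 0.02, 0.03 and 0.02 over all tested genes. TGFBI passed the filter only through groups in which it was high, so its calls, which these counts include, lend them no weight. The 2 doses of a week share their vehicle arrays. In bulk RNA, fewer cells of a kind and less RNA per cell cannot be told apart.

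**Figure D1:**
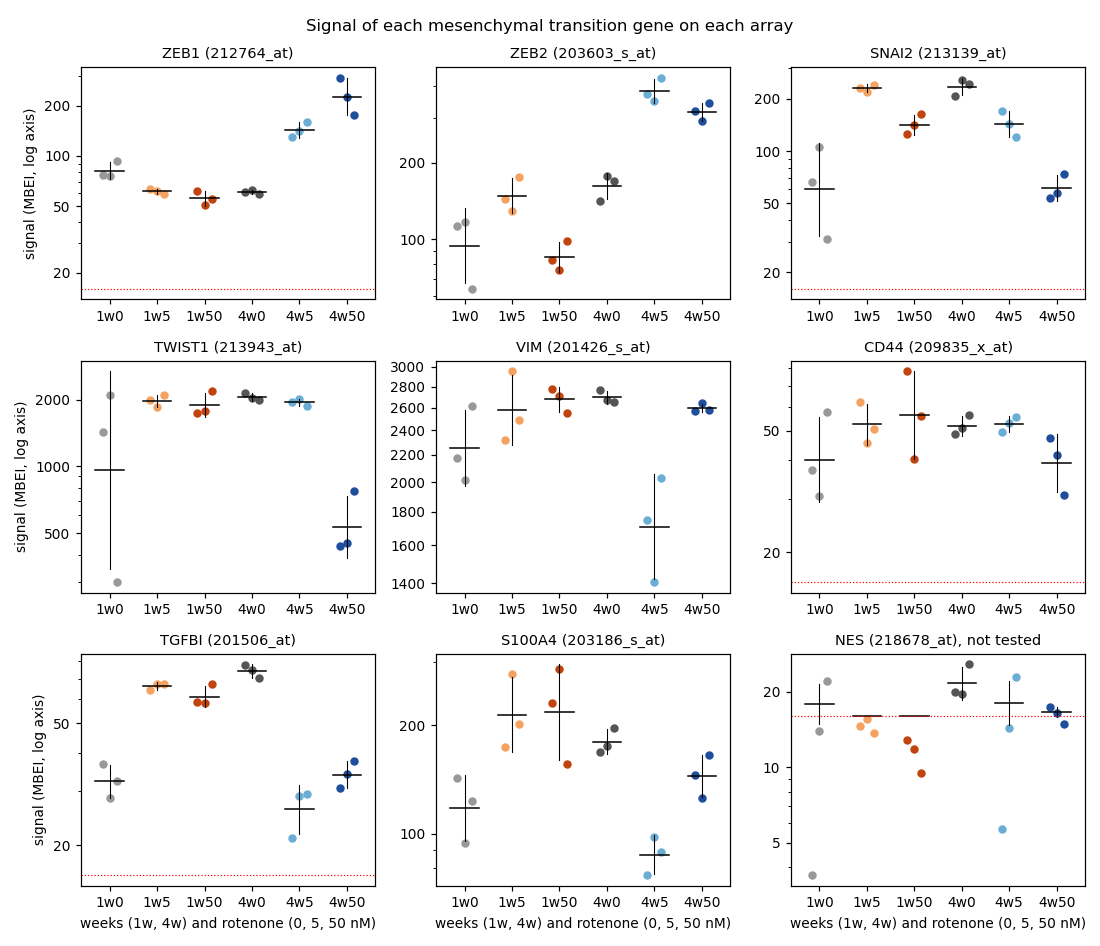
Signal of each gene on every array (MBEI, log axis, a different range in each panel) in the 6 groups, with 1w and 4w for weeks and 0, 5 and 50 for nM of rotenone. Points are arrays in replicate order, horizontal lines the group means and vertical lines 1 SD on the log2 scale, both taken after values under the floor of 16 (dotted red line) were set to it, which is why lines in the NES panel lie above some points. ZEB1 lies between 129 and 292 on the 6 rotenone arrays of 4 weeks and between 50.5 and 93.3 on all others, while TGFBI lies between 21.2 and 37.7 on those 6 and between 28.7 and 77.6 elsewhere.

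ZEB1 encodes a zinc finger repressor of epithelial genes and is on chromosome 10. The signal of its tested probe set 212764_at at 4 weeks was 60.8, 62.3 and 58.9 in 4w0 nM, 129, 141 and 160 in 4w5 nM, and 292, 225 and 176 in 4w50 nM. All 3 groups were apart from each other, in the order of the dose. The mean was 2.36 times that of 4w0 nM with 5 nM (log2 fold change 1.24, SE 0.16, limma adjusted p = 4.29e-05) and 3.73 times with 50 nM (1.90, SE 0.16, adjusted p = 1.03e-06). The 50 nM cells also exceeded the 5 nM cells (0.66, SE 0.16, adjusted p = 0.0105). That last step rests on replicate 1 of 4w50 nM, since without it the difference was 0.48 with adjusted p = 0.0788.

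At 1 week ZEB1 lay the other way. Its signals were 76.4, 76.1 and 93.3 in 1w0 nM, 63.0, 62.1 and 59.1 in 1w5 nM, and 61.7, 50.5 and 55.4 in 1w50 nM, so that both doses lay below vehicle with no overlap. ZEB1 fell with 50 nM (-0.55, SE 0.16, adjusted p = 0.0227), and the value for 5 nM was -0.41 with adjusted p = 0.137. The fall at 50 nM was lost when both arrays in doubt were left out (adjusted p = 0.0572) and when replicate 2 of 1w50 nM was (0.0909). Against the 4w0 nM arrays, the 50 nM value of ZEB1 at 1 week was -0.12 (adjusted p = 0.716). Vehicle cells averaged 60.66 ± 1.74 in 4w0 nM and 81.97 ± 9.86 in 1w0 nM (SD, n = 3 each), a log2 difference of -0.43 that did not pass the test (adjusted p = 0.170).

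The other probe sets of ZEB1 were dimmer and not tested. Probe set 210875_s_at was under the floor on all 3 arrays of 4w0 nM, at 11.8, 11.2 and 7.76, and read 46.6, 38.4 and 46.9 in 4w5 nM and 58.6, 59.0 and 30.5 in 4w50 nM. Against a floor of 16, that is at least 2.74-fold higher in 4w5 nM and at least 2.95-fold higher in 4w50 nM. Probe set 212758_s_at stayed between 22.3 and 54.7 over all arrays, and at 4 weeks its arrays of both doses overlapped those of vehicle. In a limma fit without the filter it was not called at 4 weeks with 5 nM (0.28, adjusted p = 0.502) or 50 nM (0.43, adjusted p = 0.236).

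ZEB2, on chromosome 2, encodes the paralogous repressor, also known as SIP1 for its binding to SMAD proteins. At 4 weeks it read 142, 178 and 169 in 4w0 nM, 373, 350 and 431 in 4w5 nM, and 318, 291 and 343 in 4w50 nM. Each rotenone array was above every vehicle array, and here the lower dose had the higher signals. ZEB2 rose 2.36-fold with 5 nM (1.24, SE 0.20, adjusted p = 0.000192) and 1.95-fold with 50 nM (0.97, SE 0.20, adjusted p = 0.000942), and the 2 doses did not differ by the test (-0.27 for 50 nM against 5 nM, 95% confidence interval -0.69 to 0.14, adjusted p = 0.388).

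At 1 week ZEB2 had 113, 117 and 63.8 in 1w0 nM, 144, 130 and 176 in 1w5 nM, and 82.9, 75.5 and 98.9 in 1w50 nM. No dose passed the test (0.65, adjusted p = 0.0543, and -0.15, adjusted p = 0.626). The 5 nM value of ZEB2 ran from 0.37 to 0.81 with 1 array left out, and it passed without replicate 1 (adjusted p = 0.0445) or replicate 2 (0.0245) of 1w0 nM and after quantile normalization (0.0464). Replicate 3 of 1w0 nM decided the 50 nM value, since without it ZEB2 fell with 50 nM by 0.43 on the log2 scale (adjusted p = 0.0411). Against the 4w0 nM arrays the 50 nM value of ZEB2 was -0.93 and passed (adjusted p = 0.0146). The 1w50 nM arrays lay below all 1w5 nM arrays, and that difference of -0.80 did not pass over all probe sets (adjusted p = 0.119). In that comparison 0 of the 8 genes were called by limma, 2 had an unadjusted p below 0.05, and 0.0109% of all tested genes were called.

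The promoters of the 2 genes are shown because both genes rose at 4 weeks and because their products bind CAGGTG, which reads CACCTG on the other strand. The windows are the 250 bases before the first transcript start in RefSeq (GRCh38.p14), 5′ to 3′ in the direction of the gene, at chr10:31318167-31318416 on the plus strand for ZEB1 and at chr2:144520120-144520369 on the minus strand for ZEB2. Capitals mark CAGGTG or CACCTG.
ZEB1: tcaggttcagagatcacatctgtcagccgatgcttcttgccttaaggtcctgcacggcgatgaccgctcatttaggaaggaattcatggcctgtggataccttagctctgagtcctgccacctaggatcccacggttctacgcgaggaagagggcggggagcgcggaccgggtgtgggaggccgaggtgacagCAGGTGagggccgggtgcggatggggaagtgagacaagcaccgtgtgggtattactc
ZEB2: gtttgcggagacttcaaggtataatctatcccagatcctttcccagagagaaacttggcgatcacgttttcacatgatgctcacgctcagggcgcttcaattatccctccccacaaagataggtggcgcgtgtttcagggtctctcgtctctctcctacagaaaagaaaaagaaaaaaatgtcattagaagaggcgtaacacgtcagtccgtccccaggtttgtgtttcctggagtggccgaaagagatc
The ZEB1 window held 1 such motif, 57 bases before the start, and the ZEB2 window held 0. Of 7 ZEB1 starts in the table, 2 had the motif in their window. For comparison, 17.5% of 35116 promoter windows of this length held it. The shorter E-box core CANNTG, which includes it, stood 2 times in the ZEB1 window shown and 1 time in that of ZEB2, and in 61.8% of all windows.

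SNAI2 encodes SLUG, a SNAIL family repressor known from neural crest migration, and its gene is on chromosome 8. Its arrays were lower at each higher dose at 4 weeks, while at 1 week both doses were above vehicle. At 4 weeks SNAI2 read 206, 258 and 244 in 4w0 nM, 171, 142 and 121 in 4w5 nM, and 53.6, 57.0 and 74.1 in 4w50 nM, with no overlap between any of the 3 groups. The 50 nM cells were 3.86-fold lower than vehicle (-1.95, SE 0.29, adjusted p = 6.51e-05) and 2.35-fold lower than the 5 nM cells (-1.23, SE 0.29, adjusted p = 0.00763). For 5 nM the value was -0.71 (95% confidence interval -1.32 to -0.10) with adjusted p = 0.0673, and it passed under 4 of the other settings, for example at 0.0450 after quantile normalization.

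At 1 week SNAI2 had 65.9, 106 and 31.2 in 1w0 nM, 231, 218 and 242 in 1w5 nM, and 125, 140 and 163 in 1w50 nM. It rose 3.82-fold with 5 nM (1.93, SE 0.29, adjusted p = 0.000737) and 2.36-fold with 50 nM (1.24, SE 0.29, adjusted p = 0.00624). Without replicate 3 of 1w0 nM, its lowest array, the values were 1.46 and 0.77, and both still passed (adjusted p = 0.000218 and 0.00629). The vehicle itself was 3.91-fold higher at 4 weeks than at 1 week (1.97, SE 0.29, adjusted p = 0.000717). Set against the 4w0 nM arrays, the 1-week values of SNAI2 were -0.03 with 5 nM and -0.73 with 50 nM, neither of which passed (adjusted p = 1.00 and 0.150).

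TWIST1, a basic helix-loop-helix factor of the early mesoderm and neural crest, is on chromosome 7. At 4 weeks it read 2141, 2043 and 1987 in 4w0 nM, 1958, 2014 and 1872 in 4w5 nM, and 438, 449 and 770 in 4w50 nM. The high dose was 3.86-fold lower than vehicle at 4 weeks (-1.95, SE 0.44, adjusted p = 0.00186) and 3.65-fold lower than the low dose (-1.87, SE 0.44, adjusted p = 0.00734). The 5 nM value was -0.08, with a 95% confidence interval of -1.0 to 0.84.

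The 1-week vehicle of TWIST1 held an array unlike its group. Its signals were 1423, 2087 and 301 in 1w0 nM, 1995, 1849 and 2089 in 1w5 nM, and 1737, 1776 and 2183 in 1w50 nM. No 1-week difference passed (1.04, adjusted p = 0.160, and 0.97, adjusted p = 0.119), and without replicate 3 of 1w0 nM, the array at 301, they were 0.20 and 0.13. On 4w50 nM and this array TWIST1 was at most 770, and on the other 14 arrays it was at least 1423.

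VIM encodes vimentin, the intermediate filament protein of mesenchymal cells, and is on chromosome 10. Its signal lay between 1406 and 2956 over all arrays. At 4 weeks VIM read 2763, 2668 and 2655 in 4w0 nM, 1747, 1406 and 2029 in 4w5 nM, and 2569, 2639 and 2575 in 4w50 nM. It fell 1.58-fold with 5 nM (-0.66, SE 0.12, adjusted p = 0.000611) while the 50 nM value was -0.06 (95% confidence interval -0.31 to 0.20, adjusted p = 0.743), and the 50 nM cells were above the 5 nM cells (0.60, SE 0.12, adjusted p = 0.00291). At 1 week it averaged 2590 ± 329 in 1w5 nM and 2678 ± 117 in 1w50 nM, against 2268 ± 310 in 1w0 nM (SD, n = 3 each), and neither dose passed (0.19, adjusted p = 0.356, and 0.25, adjusted p = 0.151). Without replicate 3 of 1w0 nM the 50 nM value was 0.35 and passed (adjusted p = 0.0304).

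TGFBI encodes a secreted matrix protein induced by transforming growth factor beta, and is on chromosome 5. It reached 50 on 9 arrays, those of 1w5, 1w50 and 4w0 nM, so it passed the filter only through the groups in which it was high. Its calls are included in the counts over the 8 genes and lend them no weight. It was called higher at 1 week and lower at 4 weeks with both doses. At 4 weeks TGFBI read 77.6, 74.8 and 70.3 in 4w0 nM, 21.2, 29.0 and 29.4 in 4w5 nM, and 30.7, 34.2 and 37.7 in 4w50 nM. It fell 2.83-fold with 5 nM (-1.50, SE 0.17, adjusted p = 9.96e-06) and 2.18-fold with 50 nM (-1.12, SE 0.17, adjusted p = 6.41e-05). At 1 week it read 36.7, 28.7 and 32.3 in 1w0 nM, 64.2, 67.5 and 67.3 in 1w5 nM, and 58.6, 58.2 and 67.0 in 1w50 nM. There it rose 2.05-fold with 5 nM (1.03, SE 0.17, adjusted p = 0.00145) and 1.89-fold with 50 nM (0.92, SE 0.17, adjusted p = 0.00134).

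The replicates of TGFBI were close in every group, yet its vehicle groups differed too. In 4w0 nM TGFBI was 2.29 times its level in 1w0 nM (1.19, SE 0.17, adjusted p = 0.000411). Set against the 4w0 nM arrays, the 1-week values were -0.16 with 5 nM and -0.28 with 50 nM, and neither passed (adjusted p = 1.00 and 0.356). Its signals of 21.2 to 77.6 all lay above the floor of 16.

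S100A4 encodes a calcium-binding protein, also called metastasin or fibroblast-specific protein, and is on chromosome 1. At 4 weeks it read 169, 176 and 197 in 4w0 nM, 76.6, 98.1 and 88.8 in 4w5 nM, and 146, 126 and 165 in 4w50 nM. The low dose had the larger difference, 2.06-fold lower (-1.04, SE 0.22, adjusted p = 0.00153). For 50 nM all arrays lay below vehicle, but the value of -0.32 did not pass (95% confidence interval -0.77 to 0.14, adjusted p = 0.254), and the 50 nM cells were above the 5 nM cells (0.73, SE 0.22, adjusted p = 0.0278). That step was lost without replicate 1 of 4w5 nM (0.63, adjusted p = 0.101), without replicate 1 of 4w50 nM (0.72, adjusted p = 0.0863) and without its replicate 3 (0.63, adjusted p = 0.0808).

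At 1 week S100A4 was higher with both doses. It had 143, 93.9 and 123 in 1w0 nM, 174, 278 and 202 in 1w5 nM, and 230, 286 and 156 in 1w50 nM, and rose 1.81-fold with 5 nM (0.86, SE 0.22, adjusted p = 0.0236) and 1.84-fold with 50 nM (0.88, SE 0.22, adjusted p = 0.00797). The highest 1w5 nM array and the lowest 1w50 nM array are the ones whose labels are in doubt. With both left out the 5 nM value was 0.67 and no longer passed (adjusted p = 0.0875), and with both exchanged it was 0.58 (adjusted p = 0.0542). Against the 4w0 nM arrays the S100A4 values were 0.25 and 0.27, and neither passed (adjusted p = 1.00 and 0.500).

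The promoters of TGFBI and S100A4 are shown as those of the 2 genes called higher with 5 nM at 1 week and called lower with it at 4 weeks. They lie at chr5:136028738-136028987 on the plus strand and at chr1:153545807-153546056 on the minus strand, with build, length and capitals as above.
TGFBI: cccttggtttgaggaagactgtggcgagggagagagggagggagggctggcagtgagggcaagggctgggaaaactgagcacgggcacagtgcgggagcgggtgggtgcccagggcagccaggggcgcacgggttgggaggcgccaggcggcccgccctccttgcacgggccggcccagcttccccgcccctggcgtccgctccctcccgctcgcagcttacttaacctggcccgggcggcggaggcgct
S100A4: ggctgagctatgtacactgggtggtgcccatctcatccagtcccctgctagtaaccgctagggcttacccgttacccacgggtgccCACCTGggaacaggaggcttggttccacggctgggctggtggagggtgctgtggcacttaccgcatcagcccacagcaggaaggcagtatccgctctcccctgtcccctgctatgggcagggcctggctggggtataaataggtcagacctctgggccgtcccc
The S100A4 window held 1 CACCTG, 164 bases before the start, and the TGFBI window held neither that motif nor any CANNTG. Windows were listed for 7 of the 9 genes, and those of ZEB1 and S100A4 were the ones with CAGGTG or CACCTG.

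CD44 encodes the hyaluronan receptor, and its 8 probe sets on chromosome 11 read different stretches of a transcript with many splice forms. The brightest, 209835_x_at, had 48.7, 51.0 and 56.1 in 4w0 nM, 49.6, 53.1 and 55.7 in 4w5 nM, and 47.3, 41.8 and 30.8 in 4w50 nM. At 1 week it read 37.2, 30.6 and 57.4 in 1w0 nM, 62.3, 45.7 and 50.7 in 1w5 nM, and 78.4, 40.4 and 56.0 in 1w50 nM. CD44 was called in 0 of the 4 dose comparisons, with values between -0.40 and 0.48, all with 95% confidence intervals that include 0. Without replicate 3 of 1w0 nM it rose with 50 nM at 1 week (0.74, adjusted p = 0.0257). The second tested probe set, 212014_x_at, lay between 33.4 and 75.1 and was not called either, and the other 6 were at most 60.1 on any array.

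NES encodes nestin, the filament protein of neural progenitors, and its 1 probe set read between 3.72 and 25.7. It was under the floor of 16 on 11 of 18 arrays, so no difference between groups could be read from it.

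**Figure D2:**
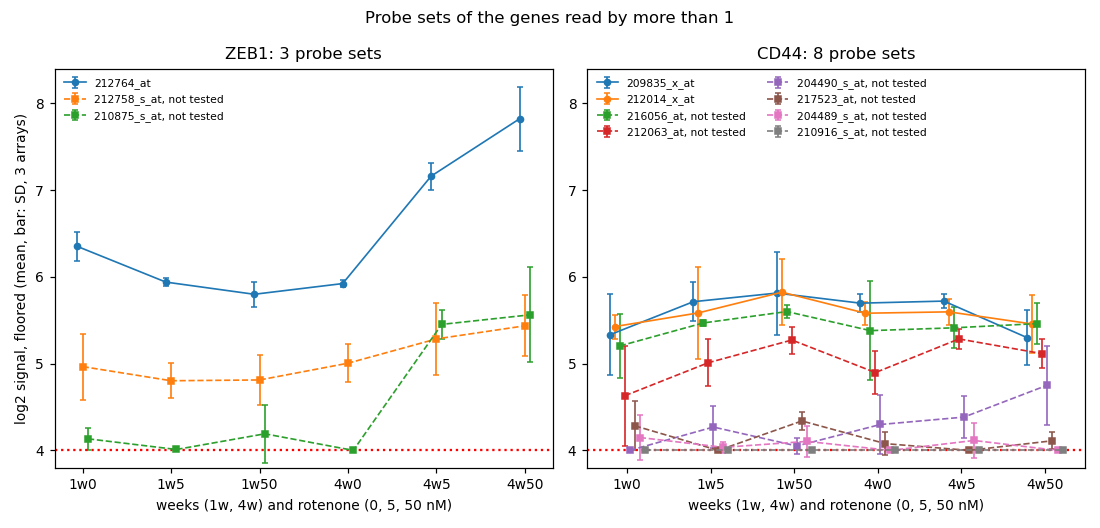
Mean log2 signal of all probe sets of ZEB1 and CD44 in the 6 groups (bars, SD of 3 arrays), after values under the floor of 16 (dotted red line) were set to it. Circles with full lines are tested probe sets and squares with dashed lines are not, and 212764_at and 210875_s_at of ZEB1 are both highest in 4w50 nM, whereas neither tested CD44 probe set was called in a dose comparison.

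**Figure D3:**
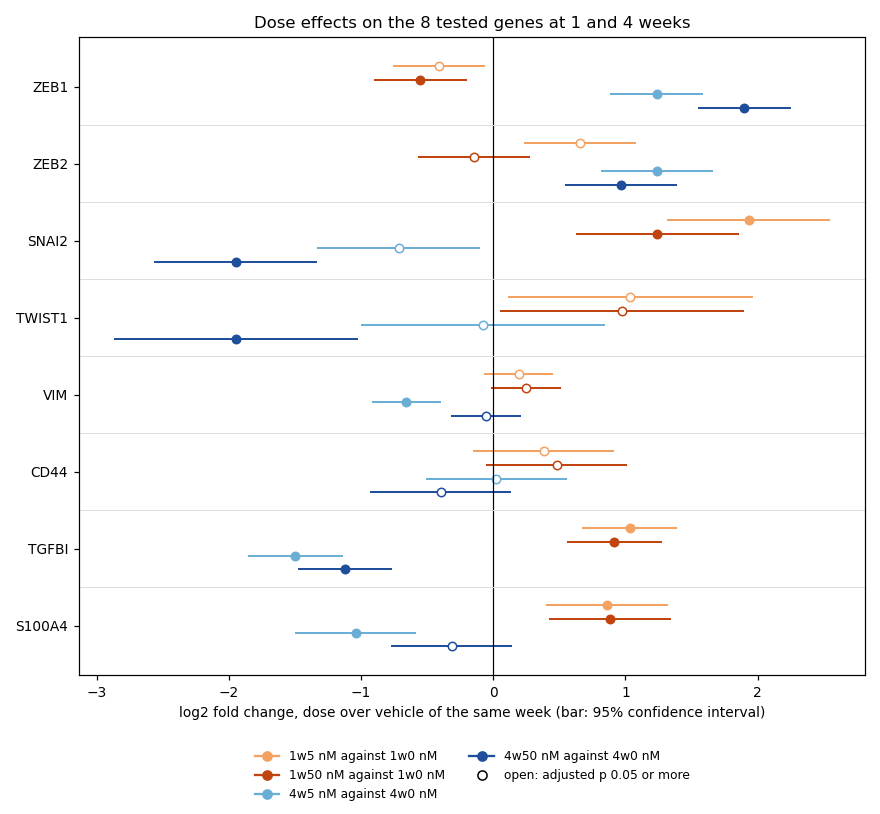
Log2 fold change of each dose over the vehicle of its week for the 8 tested genes, with the 95% confidence interval as a bar and filled points at an adjusted p below 0.05. ZEB1 and ZEB2 lie right of 0 at 4 weeks at both doses, and TGFBI lies right of 0 at 1 week (1.03 and 0.92) and left at 4 weeks (-1.50 and -1.12).

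Whether an effect of rotenone differed between weeks was tested as the effect at 4 weeks minus that at 1 week. For 5 nM 1 gene was called higher and 4 lower of 8, where 15.1% of all tested genes were higher and 17.3% lower (32.4% called). ZEB1 had the positive difference (1.65, SE 0.23, adjusted p = 7.33e-05), and SNAI2 (-2.65, SE 0.41, adjusted p = 0.000168), TGFBI (-2.53, SE 0.24, adjusted p = 1.14e-06), S100A4 and VIM the negative ones. For 50 nM 2 genes were called higher and 4 lower, where 24.2% of all tested genes were higher and 20.4% lower (44.7% called). The 2 were ZEB1 (2.45, SE 0.23, adjusted p = 9.18e-07) and ZEB2 (1.12, SE 0.28, adjusted p = 0.00369), and the 4 were SNAI2 (-3.19, SE 0.41), TWIST1 (-2.92, SE 0.62), TGFBI (-2.04, SE 0.24) and S100A4 (-1.20, SE 0.30). TGFBI, counted at both doses, passed the filter only through groups in which it was high, and lends these counts no weight. Each of these differences holds both vehicle groups. Without replicate 3 of 1w0 nM ZEB2 was also called for 5 nM (0.87, adjusted p = 0.00316), and CD44 (-1.14, adjusted p = 0.00794) and VIM (-0.41, adjusted p = 0.0445) for 50 nM.

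**Figure D4:**
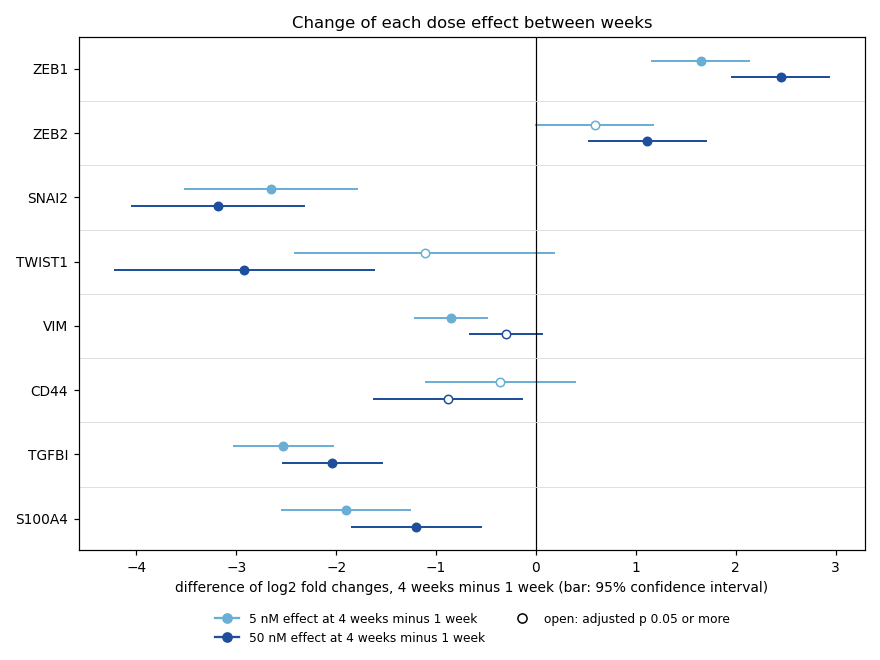
Difference of each dose effect between weeks (log2 fold change at 4 weeks minus that at 1 week) for the 8 tested genes, with 95% confidence intervals, filled where the adjusted p is below 0.05. The points of ZEB1 are at 1.65 and 2.45, and those of SNAI2, TGFBI and S100A4 lie left of 0 at both doses.

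The vehicle cells by themselves differed between the weeks. Comparing 4w0 nM with 1w0 nM, 3 of 8 genes rose and 0 fell, where 2.72% of all tested genes rose and 0.677% fell (3.39% called). SNAI2, TGFBI and ZEB2 were the 3, with ZEB2 at 0.78 (SE 0.20, adjusted p = 0.0365). The TGFBI call lends this count no weight, since TGFBI passed the filter only through groups in which it was high, 4w0 nM among them. The ZEB2 call rests on single arrays, for without replicate 3 of 1w0 nM it was 0.50 (adjusted p = 0.0682), and leaving out any 1 array of 4w0 nM ended it too. The arrays of the 2 vehicle groups did not overlap for 6 of 8 genes, where 23.3% of all tested genes were apart.

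Between weeks at the same dose, 2 genes rose and 3 fell of 8 in 4w5 nM against 1w5 nM, where 20.3% of all tested genes rose and 17.2% fell (37.5% called). In 4w50 nM against 1w50 nM 2 rose and 4 fell, where 30.4% rose and 20.6% fell (51.1% called). ZEB1 was 2.33-fold higher in 4w5 nM than in 1w5 nM (adjusted p = 3.89e-05) and 4.06-fold higher in 4w50 nM than in 1w50 nM (7.94e-08), the ZEB2 values being 2.58-fold (7.62e-05) and 3.72-fold (7.46e-07). TGFBI fell in both, by 1.34 and 0.84 on the log2 scale, as did S100A4, by 1.29 and 0.59. VIM fell in the 5 nM pair (-0.59), and SNAI2 (-1.22) and TWIST1 (-1.82) in the 50 nM pair. In 4w50 nM against 4w5 nM 3 rose and 2 fell, where 9.92% of all tested genes rose and 7.07% fell (17.0% called), namely ZEB1, VIM and S100A4 higher and SNAI2 and TWIST1 lower.

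Over the 6 groups the genes ranked them in different orders. ZEB1 was highest in 4w50 nM (231 ± 58.6) and 4w5 nM (144 ± 15.6), then in 1w0 nM, while 1w5 nM, 4w0 nM and 1w50 nM followed, each overlapping the next. For ZEB2 4w5 nM came first (385 ± 41.5) and 1w50 nM last (85.8 ± 11.9, SD, n = 3), overlapping 1w0 nM. SNAI2 ran from 4w0 nM (236 ± 26.6) and 1w5 nM (230 ± 11.9), which overlapped, to 1w0 nM and 4w50 nM, which also overlapped. For TGFBI the 4w50 nM, 1w0 nM and 4w5 nM arrays formed the low end and overlapped as neighbours, so that rotenone cells of 4 weeks stood beside vehicle cells of 1 week. The 5 nM arrays of 4 weeks were the lowest for VIM and S100A4, each overlapping 1w0 nM.

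Likeness between genes was read as Pearson's r of log2 signals over the 18 arrays, which share libraries and groups, and is a description only. SNAI2 and TWIST1 had r = 0.88, TGFBI and S100A4 0.82, VIM and S100A4 0.77, and ZEB1 and ZEB2 0.75. ZEB1 ran against TGFBI (r = -0.75) and TWIST1 (-0.64), whereas ZEB2 and SNAI2 had r = 0.02. Among all 9162 genes, the 3 most like ZEB1 were FBXO38, METAP1 and THAP12 (r = 0.98 each). FBXO38, for instance, averaged 271, 244 and 209 over 0, 5 and 50 nM at 1 week and 246, 381 and 509 at 4 weeks. SMNDC1, AGGF1 and PIGG were the most like ZEB2 (0.96 to 0.97), and EMP2, CBR3 and DKK3 the most like SNAI2 (0.93 to 0.96). For TWIST1 they were EXT1, the collagen gene COL3A1 and ADRB3 (0.98 each), of which COL3A1 averaged 830, 1173 and 99.8 over 0, 5 and 50 nM at 4 weeks. VIM was most like SGSH, COL1A2 and ETHE1 (0.91 to 0.94), TGFBI like SLC18A3, G0S2 and TIMP1 (0.97 to 0.98), S100A4 like CAMK1, VIPR1 and CDK5RAP1 (0.93 to 0.95), and CD44 like CEACAM7, ZNF576 and TRIM29 (0.79 to 0.82).

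Neighbouring genes along the chromosome and related gene lists were read as a further description, and none of them was tested as a list. Their counts are to be read beside all tested genes. At 4 weeks 18.5% of these were called higher and 14.1% lower at the 5 nM dose, and 23.3% higher and 17.6% lower at 50 nM. At 1 week the shares were 4.89% higher and 1.59% lower at 5 nM, and 8.97% higher and 11.4% lower at 50 nM. Of the 40 tested genes nearest to ZEB1, 20 on each side, 19 rose and 2 fell with 5 nM at 4 weeks and 16 rose and 4 fell with 50 nM, with median log2 fold changes of 0.33 and 0.30, against 0.03 and 0.02 over all genes. VIM, on the same chromosome, fell with 5 nM while 14 of its 40 neighbours rose and 3 fell.

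The targets of these repressors were read from epithelial genes, of which 17 of 27 listed were tested. CDH1 (E-cadherin), KRT19 and CLDN7 were under the floor on all arrays, so a fall of these could not have been seen. At 4 weeks 2 rose and 4 fell with 5 nM, and 0 and 5 did with 50 nM, and at 1 week 2 rose with 5 nM and 3 with 50 nM and 0 fell. The list's median was -0.18 and -0.34 at 4 weeks and 0.02 and 0.06 at 1 week. The largest called change of the list was that of keratin 8. KRT8 averaged 41.6 ± 4.59 in 4w5 nM and 52.2 ± 14.2 in 4w50 nM, against 209 ± 3.49 in 4w0 nM (log2 -2.33, adjusted p = 5.1e-07, and -2.04, adjusted p = 2.9e-06), and 199 ± 0.545 in 1w5 nM and 173 ± 21.9 in 1w50 nM, against 54.1 ± 15.2 in 1w0 nM (SD, n = 3 each). KRT18, its filament partner, and the epithelial factor ELF3 fell at 4 weeks with both doses (KRT18 -1.07 and -0.88, ELF3 -1.11 and -1.04). The desmosome gene DSP rose with 5 nM at 4 weeks (1.51, adjusted p = 0.020).

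The list of other mesenchymal genes held 35 symbols, with both the old and the new symbol for CCN1 and for CCN2. From it 26 genes were tested, of which 6 rose with 5 nM at 1 week and 10 with 50 nM, with 0 and 1 lower. At 4 weeks 3 rose and 7 fell with 5 nM, and 2 and 12 did with 50 nM, with medians of -0.16 and -0.37, against 0.03 and 0.02 over all tested genes. LGALS1 (galectin-1) averaged 74.6 ± 7.86 in 4w5 nM and 140 ± 15.5 in 4w50 nM, against 704 ± 24.5 in 4w0 nM, log2 fold changes of -3.24 and -2.34 (adjusted p = 7.5e-09 and 3.0e-07), after 2.48 and 2.58 at 1 week. The matrix gene TNC (tenascin C) also rose at 1 week and fell at 4 weeks, with 2.87 and 2.38 at 1 week and -1.79 and -1.75 at 4 weeks. FN1 (fibronectin) fell with 50 nM at 4 weeks, to 220 ± 271 in 4w50 nM, against 1536 ± 28.4 in 4w0 nM (-3.56, adjusted p = 0.0031), with an SD above its mean, and the cross-linking enzyme LOXL1 fell with 5 nM (-2.78) and read -0.01 with 50 nM.

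Markers of fibroblasts, many of which are also mesenchymal genes, were read as a check on the cells. Of 10 tested, 5 rose and 0 fell with either dose at 1 week, and at 4 weeks 1 rose and 5 fell with 5 nM, and 0 and 6 did with 50 nM. Their summed signal was 6723 to 6935 in 1w5 nM and 6259 to 6855 in 1w50 nM, against 4119 to 4501 in 1w0 nM, and 4398 to 5171 in 4w5 nM and 4499 to 4975 in 4w50 nM, against 6718 to 6892 in 4w0 nM. The fibroblast marker POSTN was below 50 on all arrays, as were the leukocyte markers CD14, CSF1R, LYZ and TYROBP, and the endothelial VWF and TIE1 were under the floor. Of 3 tested leukocyte markers 1 rose with each dose at 4 weeks, PTPRC with 5 nM (1.83) and AIF1 with 50 nM (2.62), and the list's summed signal was 1489 to 1714 in 4w5 nM and 647 to 963 in 4w50 nM, against 539.7 to 634.9 in 4w0 nM. The part of the cell mixture in these results was not tested.

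Among other transition factors 14 of 22 listed were tested. None was called with 5 nM at 1 week by limma, and 3 rose and 1 fell with 50 nM. At 4 weeks 5 rose and 1 fell with 5 nM, and 3 and 2 did with 50 nM. HMGA2, a chromatin protein that can induce SNAIL factors, rose with both doses at 4 weeks (1.12, adjusted p = 0.011, and 1.13, adjusted p = 0.0082). YAP1, the Hippo pathway coactivator, rose with 5 nM to 163 ± 40.5 in 4w5 nM, against 39.0 ± 8.01 in 4w0 nM (2.06, adjusted p = 0.0051), and read -0.47 with 50 nM. PRRX1, a homeobox factor of mesenchyme, rose with 5 nM (1.12), and ID2, an inhibitor of basic helix-loop-helix factors, fell with 50 nM (-1.45). SNAI1 was under the filter.

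Of the transforming growth factor beta pathway, which induces these factors in many cell types, all 19 listed genes were tested. At 4 weeks 2 rose and 2 fell with 5 nM, and 5 and 3 did with 50 nM, and at 1 week 1 rose and 0 fell with 5 nM, and 3 and 4 did with 50 nM. The ligand TGFB1 averaged 796 ± 48.1 in 4w5 nM and 742 ± 123 in 4w50 nM, against 1732 ± 36.3 in 4w0 nM (-1.12 and -1.24), and rose at 1 week (1.04 and 0.92). TGFBI had -1.50 and -1.12 at 4 weeks and 1.03 and 0.92 at 1 week in the same comparisons. A link between the values of TGFB1 and TGFBI was not tested. TGFB2 fell with both doses at 4 weeks (-0.94 and -1.04), TGFB3 fell with 50 nM (-1.32), and SMURF2, a ubiquitin ligase that limits the pathway, rose with both (0.83 and 0.87).

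Families of the marker genes were read next. Of 12 tested intermediate filament and linker genes, 3 rose with 5 nM and 4 with 50 nM at 1 week and 0 fell, and at 4 weeks 0 rose and 5 and 6 fell. LMNA fell with both doses at 4 weeks (-0.68 and -1.19), and the linker PLEC with 50 nM (-2.15). Of 12 tested S100 proteins and partners, 3 rose with 5 nM and 6 with 50 nM at 1 week, and 7 fell with 5 nM and 4 with 50 nM at 4 weeks. S100A11 (-2.59), S100B (-2.0), S100A13 (-1.51) and S100A6 (-1.39) fell with 5 nM at 4 weeks. With 50 nM S100A6 and S100A11 read 0.23 and -0.58 and did not pass, while S100B (-1.27) and S100A13 (-0.50) fell.

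For CD44, hyaluronan enzymes and receptors, membrane linkers, ligands and processing enzymes were read, of which 11 of 16 were tested. With 5 nM at 4 weeks 3 rose and 1 fell and with 50 nM 1 rose and 3 fell, and at 1 week 1 rose with each dose and 0 and 1 fell. HMMR, another hyaluronan receptor and a mitotic gene, rose with 5 nM at 4 weeks (1.53, adjusted p = 0.010), and the sheddase ADAM10 rose with both doses (0.79 and 0.91). NF2, which encodes merlin, rose at 1 week (0.78 and 0.74) and fell with 50 nM at 4 weeks (-0.73). STAB1 fell with both doses at 4 weeks (-0.67 and -0.59).

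For NES, neural progenitor genes were read, of which 8 of 20 were tested. With 5 nM at 4 weeks 2 rose and 0 fell, and with 50 nM 1 rose and 4 fell. FABP7, a fatty acid binding protein of radial glia, averaged 126 ± 85.6 in 4w5 nM and 323 ± 119 in 4w50 nM, against 38.4 ± 5.86 in 4w0 nM (1.46, adjusted p = 0.011, and 3.02, adjusted p = 2.9e-05). At 1 week it fell with both doses (-2.35 and -2.36). SOX2 (-1.38), NGFR (-1.14) and SOX9 (-1.10) fell with 50 nM at 4 weeks.

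**Figure D5:**
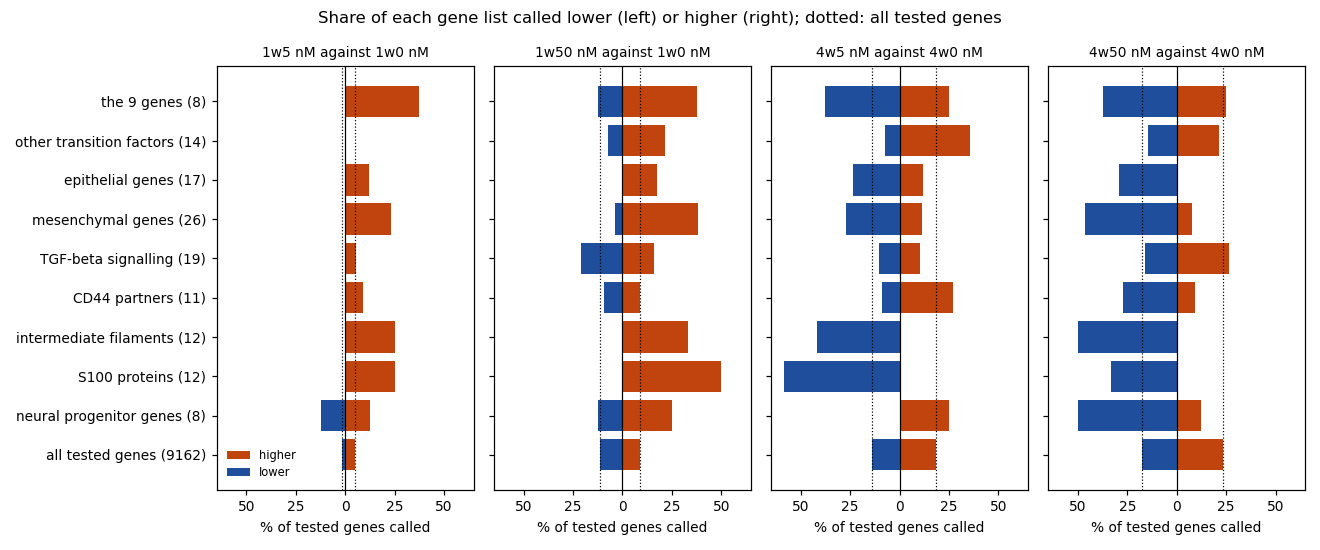
Percentage of the tested genes of each list (number in brackets) called higher (right, red) or lower (left, blue) at an adjusted p below 0.05, in the 4 dose comparisons, with dotted lines at the percentage of all 9162 tested genes. Mesenchymal genes, intermediate filaments and S100 proteins lie mostly to the right at 1 week and mostly to the left at 4 weeks, in the last 2 with 0 higher at 4 weeks.

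The 1-week counts of these lists depend on the vehicle arrays. Without replicate 3 of 1w0 nM, 8 mesenchymal genes rose with 5 nM and 10 with 50 nM (0 and 2 lower), and 5 and 7 S100 genes rose, with 11.1% and 34.3% of all tested genes called. Of the members 3 were called with 5 nM and 7 with 50 nM, the added calls with 50 nM being ZEB2 lower and VIM and CD44 higher. Arrays of the groups did not overlap for 5 members with 5 nM and 4 with 50 nM at 1 week, and for 6 and 8 at 4 weeks, where 24.3%, 31.2%, 53.1% and 60.0% of all tested genes were apart.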

How the data were processed

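SK-N-MC cells of 6 groups were profiled on Affymetrix GeneChip arrays, 3 per group. The deposited values are linear signal intensities that the authors computed with dChip as model-based expression indices and normalized, by a method not given in the sources used here; array medians ran from 87.03 to 101.53. Of 22283 probe sets, 19065 have 1 gene in the platform annotation. Signals were floored at 16, log2 transformed and fitted with limma 3.58.1 in R 4.3.3 (1 mean per group over all 18 arrays, moderated variance with trend). Probe sets of at least 50 on at least 3 arrays were tested, with Benjamini-Hochberg adjustment over 13705 of them for each comparison, and a gene was read by its brightest probe set. The study describes 3 experiments, while the sample labels only number the replicates and do not say whether they are separate cultures. The p-values therefore speak only of the variation among these arrays, part of which may be technical. The named genes are all 9 members, up to 4 genes of each list with the largest changes past the threshold, and the 3 genes most like each member. Unchanged or undetected list genes and cell markers were named after their values were seen. The members and lists were chosen with earlier results of these data known. In simulated data of the same size with 200 changed probe sets, 85% of 2-fold and 25% of 1.5-fold changes were recovered for 1w5 nM, and 81% and 17.5% for 4w50 nM. The simulation gave a probe set the same spread in all groups, so it lacked the lower correlation seen within 1w0 nM. It changed only probe sets with mean log2 signals above those of CD44 (5.60) and TGFBI (5.50). The recovered shares may therefore be too high for the 1-week comparisons and for those 2 genes. Alternatives changed the floor, filter, normalization, variance model, arrays and baseline. Group means in the study's supplementary list served only to check sample labels.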

Additional observations from a re-analysis of the deposited data

Results flagged for a closer look

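By limma's test of the effect at 4 weeks minus that at 1 week, the effect of rotenone differed between the weeks for 5 of the 8 tested genes with 5 nM, where 32.4% of all tested genes were called, and for 6 with 50 nM, where 44.7% were. Both counts include TGFBI, which passed the filter only through groups in which it was high and lends them no weight. The difference in log2 fold change was positive for ZEB1, at 1.65 with 5 nM and 2.45 with 50 nM, and for ZEB2 at 1.12 with 50 nM. It was negative for SNAI2, at -2.65 with 5 nM and -3.19 with 50 nM, and for TGFBI, at -2.53 and -2.04. For S100A4 it was -1.90 and -1.20, for TWIST1 -2.92 with 50 nM and for VIM -0.85 with 5 nM. Every one of these differences uses the 1w0 nM arrays, and without replicate 3 of that group TWIST1 was at -2.08. No group has more than 3 arrays, so single arrays far from their group were not tested for.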

How the results depend on the processing

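Both dose comparisons at 4 weeks had 5 called genes of 8 when any single array was left out, and the 2 at 1 week ran from 2 to 4 for 5 nM and from 2 to 7 for 50 nM, with 7 without replicate 3 of 1w0 nM and 2 without replicate 2 of 1w50 nM. The range was 0 to 0 for 1w50 nM against 1w5 nM, 3 to 5 for 4w50 nM against 4w5 nM (3 without replicate 1 of 4w50 nM), and 2 to 4 for 4w0 nM against 1w0 nM. Fitted to the 6 arrays of a comparison alone, limma called 0 genes for 1w5 nM and 0 for 1w50 nM against 1w0 nM (5 and 4 at an unadjusted p below 0.05), 2 for 1w50 nM against 1w5 nM and 1 for 4w0 nM against 1w0 nM. The methods' t-test called 0 genes after Benjamini-Hochberg adjustment in 1w5 nM, 1w50 nM and 4w0 nM against 1w0 nM and 0 in 4w50 nM against 4w5 nM (4, 3, 4 and 5 unadjusted). At an unadjusted p below 0.05 and at least 2-fold, it called 0 for 1w50 nM against 1w0 nM and 2 for 4w50 nM against 4w5 nM. Array weights, whose estimation stopped short of its tolerance, gave 2 for 1w50 nM against 1w0 nM and 2 against 1w5 nM. Against the 4w0 nM arrays, 0 genes were called for 1w5 nM (0 unadjusted) and 1 for 1w50 nM, and the called values of SNAI2 (-0.031 and -0.73) and TGFBI (-0.16 and -0.28) changed sign, as did the uncalled ones of TWIST1 (-0.058 and -0.12), VIM (-0.065 and -0.010) and, with 5 nM, ZEB2 (-0.12) and ZEB1 (0.017). An alternative chosen after seeing the data, without replicate 3 of 1w0 nM and both arrays in doubt, called ZEB2 and SNAI2, 2 genes, lower with 50 nM than with 5 nM at 1 week (adjusted p = 0.00166 and 0.0354). The causes were not tested. Samples with the same replicate number were not seen to deviate together (r from -0.50 to 0.36, 11 of 45 pairs over 0.1). Of pairs with other numbers, 25 of 90 were over 0.1. With 3 arrays in a group and some arrays in doubt, this cannot decide whether groups share experiments. Samples were not paired in the main fit. A replicate block gave 3 called genes for 1w5 nM, 4 for 1w50 nM, 5 for 4w5 nM and 5 for 4w50 nM against vehicle, and 2 for 4w0 nM against 1w0 nM, where ZEB2 was lost (adjusted p = 0.0611). Over the 8 genes, 11 comparisons and all settings, 1958 values kept their side of the threshold, some uncalled ones with a change of sign, 75 lost a call, 45 gained one and 4 called values changed sign. Of all tested genes, 594 were called for 1w5 nM and 1870 for 1w50 nM against 1w0 nM, but 30 and 278 on the compared arrays alone, 7 and 3 by the adjusted t-test and 1014 and 3141 without replicate 3 of 1w0 nM. At 4 weeks 2987 and 3749 were, against 5595 and 5654 with array weights. Signals near the floor of 16 limit CD44, TGFBI, NES and the dimmer ZEB1 probe sets, and the 5 nM value of TGFBI at 4 weeks ran from -1.65 to -1.09 over the settings.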
